A study of Rattus norvegicus with 3 samples.

Results

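Gdf15 encodes growth differentiation factor 15, a secreted stress cytokine, and it was followed here across 3 states of a rat bone cell line given inorganic polyphosphate. The gene was chosen because its signal was highest at the low dose, lower at the high dose and lowest without polyphosphate, so that order and its size are a description of these arrays and carry no test. It is 1 of 14397 genes with a signal well above background on all 3 arrays, and it was found as the only probe, of 30367 non-control probes, whose gene name in the files is Gdf15. That probe lies at 2 separate spots on each array.

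The cells were ROS17/2.8, a line derived from a rat osteosarcoma that resembles osteoblasts, grown to confluence and then kept in mineralization medium containing ascorbate phosphate and β-glycerophosphate in all groups. The high group received 1 mg/ml polyphosphate for 24 h and the low group 0.01 mg/ml for 24 h, while the control group received none and its labels give no time. Polyphosphate is a chain of phosphate residues joined by phosphoanhydride bonds. Each group is 1 Agilent 1-colour array of Cy3-labelled cRNA, so there is no biological replicate, no p-value and no spread between cultures, and each ± below is an error between repeat spots that covers the measurement on an array only.

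GDF15 is a distant member of the transforming growth factor β family that is made as a proprotein, cut by furin-type convertases and released as a dimer. It acts through the receptor GFRAL with the co-receptor RET in the hindbrain, where it lowers appetite. In many cell types its gene is known to be induced by the integrated stress response, in which phosphorylation of eIF2α favours translation of the transcription factor ATF4 and expression of its partner CHOP (Ddit3), and also by the p53 pathway.

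The probe sequence is shown because every Gdf15 value below is the brightness of this 1 oligonucleotide. Per the file annotation it begins at position 836 of the Gdf15 transcript and so in exon sequence, and whether this is coding or untranslated was not used here. It lies at chr16:19313390-19313449 of the rat build rn4, on the plus strand, and has 60 bases, 55% of them G or C, and no part is in capitals because none is singled out.
Gdf15: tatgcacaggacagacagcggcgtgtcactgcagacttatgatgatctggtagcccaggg
The longest run of bases it shares exactly with any other of the 30367 probes, on the same or the opposite strand, is 12 bases.

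On the control array the Gdf15 spots gave a processed signal of 638 and 616 on the linear intensity scale. The low dose array gave 1049.6 and 997. On the high dose array the spots gave 824 and 790.0. Every low dose spot was above every high dose spot, and these were above every control spot. So before scaling between arrays the groups' spots did not overlap. How many of all probes show such a separation was not counted. It is therefore a description only, for Gdf15 and for the genes below. The repeat spots differed from each other by 3.53% of their mean on the control array, by 5.12% on the low dose array and by 4.17% on the high dose array. All 6 spots were well above background, none was saturated and none was flagged as an outlier. Their mean foreground was 17.8 to 29.8 times the local background.

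**Figure D1:**
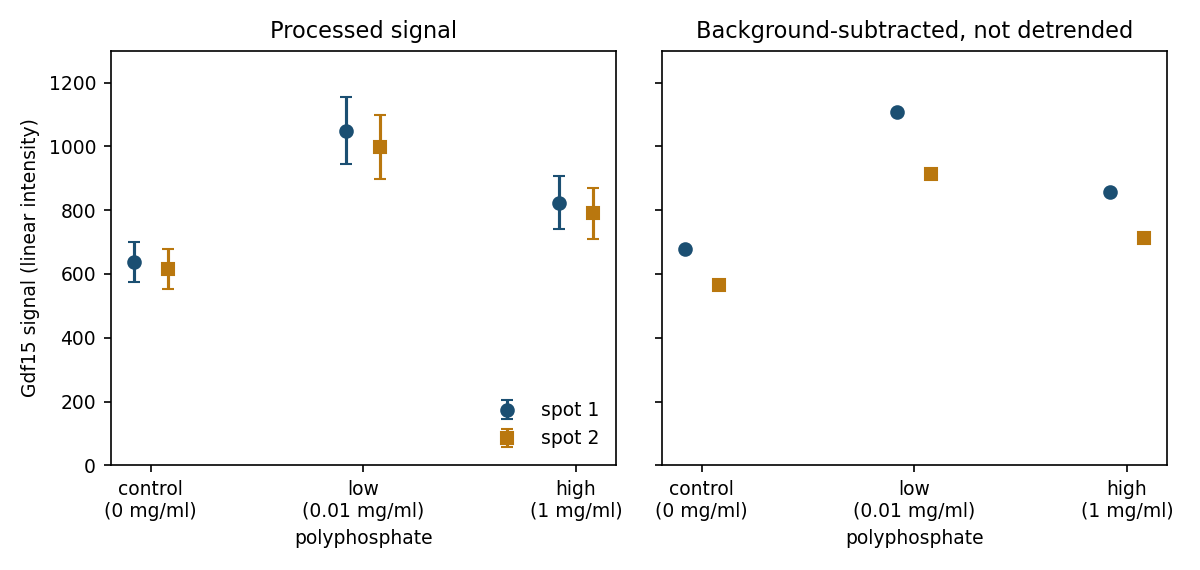
Gdf15 signal (linear intensity) at the 2 spots of its probe on each array, with polyphosphate dose on the horizontal axis; bars in the left panel are the error that the scanner software gives for each spot. The low dose spots, 1049.6 and 997, are the highest, the control spots, 638 and 616, the lowest, and the same order is seen in the right panel before the software's correction for position.

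The scanner software divides each spot by a fitted surface to even out the array. Before this step the control spots were at 678 and 566, the low dose spots at 1107 and 913, and the high dose spots at 858 and 714. The spots of a group lay further apart there than after the correction, and the 3 groups still did not overlap. The spots around each Gdf15 spot, within 5 rows and 5 columns, had median log2 ratios between -0.05 and 0.01 in the 3 comparisons, against Gdf15 ratios of 0.34 to 0.66 over the control, and -0.31 and -0.29 for the high dose against the low dose.

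After scaling each array to its 75th percentile, the log2 ratio of Gdf15 was 0.65 ± 0.07 for the low dose against the control, a 1.57-fold higher signal. Spot 1 alone gave 0.66 and spot 2 alone 0.64. For the high dose against the control the log2 ratio was 0.35 ± 0.07, or 1.27-fold, with 0.35 and 0.34 at the single spots. The high dose against the low dose gave -0.30 ± 0.07, so the low dose signal was 1.23-fold the high dose signal. On the linear scale the rise over the control at the high dose was 48.0% of that at the low dose. In bulk RNA, fewer cells with a transcript and less transcript per cell cannot be told apart. The error that the scanner software states for each spot is wider, about 10.0% of the signal, and gives ± 0.14 for each of these log2 ratios. The comparisons with the control share the control array, so the order of the groups depends on 3 measurements and not on separate ones.

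These ratios stand beside a narrow spread of other genes. Among the 1703 genes whose mean log2 level over the 3 arrays lay within 0.5 of Gdf15, the SD of the log2 ratio was 0.10 for the low dose against the control, 0.15 for the high dose against the control and 0.14 for the high dose against the low dose, with medians of -0.00, -0.01 and -0.01. Gdf15 ranked 1 of 1703 for the low dose against the control, 22 of 1703 for the high dose against the control, and 25 of 1703 counted from the lowest for the high dose against the low dose. Over all 14397 genes its ranks were 37, 571 and, counted from the lowest, 632. In level, 58.1% of the measured genes lay below it. In that range of level 1 gene was at least 1.5-fold higher at the low dose than in the control, which is 0.0587% of them, and it was Gdf15, while 0.375% of all measured genes were. At this level the low dose was at least 25% above the control for 0.411% of genes and the control at least 25% above the low dose for 0.235%, against 2.31% and 3.04% of all measured genes.

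The order low dose over high dose over control was found for 191 of the 1703 genes at the level of Gdf15, or 11.2%, and for 1766 of 14397 genes, or 12.3%. The 5 other possible orders held between 180 and 381 of the 1703 genes, and 1 of them, control over high dose over low dose, was less frequent. The share depends on the scaling, since 21.3% of the genes at this level had the order of Gdf15 without scaling and 39.2% with centring on the spike-in probes. Large steps were found for fewer genes. With the low dose at least 25% above both the control and the high dose, 2 of 1703 genes had the order (0.117%), and 53 of 14397 (0.368%). Gdf15 passed the step over the control and fell just short of the step over the high dose, at 1.23-fold. Of the 53 genes, 45 had levels below the range around Gdf15, where the spot error is larger. When both steps were set to 1.2-fold, a size chosen after the data were seen, 5 genes at its level had the order, and Gdf15 was 1 of them. The other 4 are probes with no gene symbol in the files, each with a single spot.

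**Figure D2:**
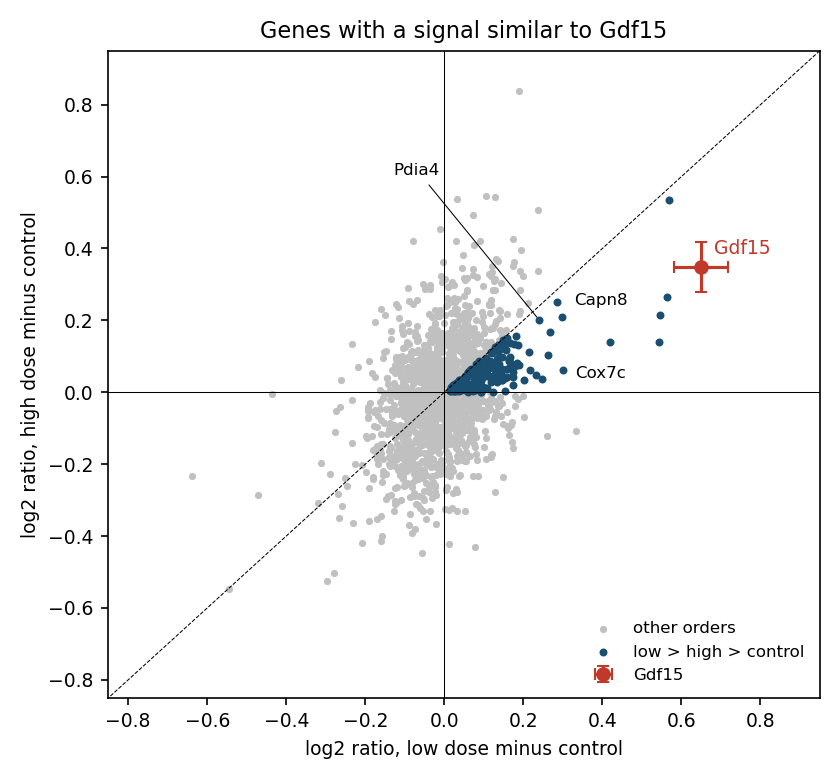
Log2 ratio of the low dose to the control (horizontal) against that of the high dose to the control (vertical) for the 1703 genes at a level like that of Gdf15; blue points have the order low over high over control, grey points other orders, and the bars on Gdf15 are its repeat-spot error. Gdf15, at 0.65 and 0.35, lies furthest to the right, and both axes use the same control array.

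The genes nearest to Gdf15 in this pattern were ranked by Euclidean distance over both log2 ratios to the control, across the 3 arrays. The nearest at its level with a symbol was Capn8, a calpain protease, at a distance of 0.38, but its probes disagreed: a dim single-spot probe at 88.1, 131 and 112 in control, low and high dose gave 0.52 and 0.33 for the low and high dose, and the brighter probe gave 0.08 and 0.09. Next was Pdia4, a disulfide isomerase of the endoplasmic reticulum, at a distance of 0.44. The Pdia4 spots gave 826 and 834 in the control, 1061 and 982 at the low dose, and 971 and 957 at the high dose. Before scaling the low dose spots were above both others. The log2 ratios were 0.24 ± 0.07 for the low dose and 0.20 for the high dose against the control. The high dose against the low dose gave -0.04 ± 0.07, a step within the spot error. Cox7c, a subunit of cytochrome c oxidase with 1 spot, gave 626, 801 and 661 in control, low and high dose, or 0.30 and 0.06. Tap2, a peptide transporter of antigen presentation, had control spots from 938 to 959, low dose spots from 1148 to 1170.1 and high dose spots from 962 to 1022, and so 0.23 and 0.05. Lrp5, a Wnt co-receptor, gave 0.19 and 0.13.

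The probes of Taf15, an RNA-binding protein, disagreed as well. Of its probes, 1 gave -0.04 and -0.07, and the other gave 0.53 and 0.15. Gdf15 ranked 1 of 1703 for the low dose ratio at this level, so by that rank none of these named genes reached it.

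At the lower edge of the level range, Hexd lay just inside with log2 ratios of 0.13 and 0.03 for the low and high dose, and Exoc7 just outside with 0.11 and 0.03. At the upper edge Dexi lay inside with 0.04 and 0.02, and Pgm3 outside with 0.08 and 0.00. When level was ignored, the genes nearest to Gdf15 were all dim. Gxylt2 (0.71 ± 0.25 and 0.31), a xylosyltransferase, had control spots of 21.5 and 41.3, low dose spots of 47.7 and 53.6, and high dose spots of 35.5 and 39.5, so that the control and high dose spots overlapped. Slc25a35, a mitochondrial carrier, gave 0.61 ± 0.25 and 0.29.

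In 23 of the 14397 genes (0.16%) all 3 differences were in the order of Gdf15 and larger than 2 spot errors, and 3 of them, Gdf15 included, lay at its level (0.176% of 1703). The spot error alone does not cover a difference between cultures. Of the 23, 14 were measured by a single spot and 9 by repeat spots. Among the 9, Gdf15 had the highest low dose ratio, with the others between 0.10 and 0.51. Among the 14, Rpph1 (named Rmrp in the files) at 1.05 ± 0.08 and A_64_P143316 at 0.66 ± 0.09 were above Gdf15. The following genes were chosen from the 9 after their values were seen. Snrpd3, a core protein of the spliceosomal snRNPs with 10 spots, had control spots from 3095 to 3601 with a median of 3486, low dose spots from 4478 to 5301 with a median of 5081, and high dose spots from 3452 to 3836 with a median of 3639.5. Its low dose spots lay above all others, while its control and high dose spots overlapped, and its log2 ratios were 0.49 for the low dose and 0.06 for the high dose. Fosl2, an AP-1 transcription factor of the FOS family, had the order at both of its probes, with 0.45 and 0.23 at a dim probe and 0.27 and 0.13 at the other. At the brighter Fosl2 probe the control spots were 551 and 568, the low dose spots 689 and 713, and the high dose spots 618.9 and 619.3, with no overlap between groups.

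A group of the genes with the largest steps consisted of probes that share sequence with each other, which was also seen only after their values were known. The sequences are shown because probes with different names measure closely related letters. Starting from a probe for Hmgb1, a chromatin protein released by stressed cells, a chain of 10 probes was linked by exact shared runs of 16 bases, and 8 of these were well above background. All 8 had the order low over high over control, with log2 ratios from 0.44 to 0.64 for the low dose and from 0.19 to 0.45 for the high dose, and all 8 had a single spot. Both upper values come from 1 dim probe at 24.1, 39.1 and 33.4 in control, low and high dose, and without it the ranges were 0.44 to 0.57 and 0.19 to 0.30. Of the 23 genes above, 6 belong to this chain. In the sequences below, capitals mark exact runs of 16 or more bases that a probe shares with another of the 5 printed. In rn4 they lie at chr16:37462642-37462701 (plus strand, Hmgb1), chr7:15880996-15881055 (plus strand, RGD1565010), chr13:16324224-16324283, chr4:96198302-96198361 and chr14:54366332-54366391 (each on the minus strand and without a gene name in the files).
Hmgb1: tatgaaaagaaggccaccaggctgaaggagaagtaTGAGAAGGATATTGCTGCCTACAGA
RGD1565010: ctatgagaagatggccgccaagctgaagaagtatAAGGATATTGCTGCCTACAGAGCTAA
A_64_P040930: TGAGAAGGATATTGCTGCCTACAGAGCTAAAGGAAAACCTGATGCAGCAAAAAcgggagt
A_64_P061923: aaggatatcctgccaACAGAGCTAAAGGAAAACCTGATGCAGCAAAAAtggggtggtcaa
A_64_P035233: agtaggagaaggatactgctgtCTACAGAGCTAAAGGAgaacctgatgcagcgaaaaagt

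The Hmgb1 probe printed above gave a signal of 2713 in the control, 4137 at the low dose and 3375 with the high dose, with log2 ratios of 0.55 ± 0.08 and 0.30. Hmgb1 probes placed further along the same transcript did not have this order. The probe at transcript position 666 gave -0.00 for the low dose and 0.17 for the high dose, and that at position 1687 gave -0.08 and 0.14. Probes of 1 gene therefore disagreed, and which RNA the chained probes measured was not tested. Of the 2 genes at the level of Gdf15 that passed both 25% steps, A_64_P035233 belongs to this chain, with 912 in the control, 1386 at the low dose and 1071 with the high dose. The other, A_64_P053051, gave 577, 875 and 643. The Gdf15 probe shares no run of 16 bases with any of them.

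Genes of the integrated stress response, which are known to rise with Gdf15 in many cells, mostly had another order. The list was chosen with earlier results of these data known. Of 36 genes, 31 were measured, and 23 of these had their highest value at the high dose, as did 35.6% of all measured genes. Only 1 of the 31, the cationic amino acid transporter Slc7a1 at 0.12 and 0.07, had the order of Gdf15, against 12.3% of all genes. The median log2 ratio of the list was 0.03 for the low dose and 0.13 for the high dose against the control, and 0.10 for the high dose against the low dose, beside medians of 0.00, -0.01 and -0.01 over all genes. Centring on the spike-in probes moved the list median to 0.19 for the low dose and 0.28 for the high dose against the control, and without scaling the low dose median was 0.089. At the low dose 4 members were above the control by more than 2 spot errors and 0 were below, where 4.37% of all genes were above and 4.48% below. At the high dose 15 members, or 48.4%, were above the control and 0 below, where 10.6% of all genes were above and 13.1% below. For the high dose against the low dose 12 members were above and 1 below, where 9.5% of all genes were above and 10.7% below.

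Ddit3, which encodes CHOP, gave 16858 and 17614 in the control, 20808 and 20916 at the low dose, and 28565 and 28861 at the high dose. Its spots were lowest in the control and highest at the high dose, with log2 ratios of 0.22 ± 0.05 and 0.72. Trib3, a pseudokinase and target of CHOP, gave 2404 and 2474 in the control, 2765 and 2732 at the low dose, and 3790.04 and 3862 at the high dose. The Trib3 groups did not overlap either, and its ratios were 0.11 ± 0.06 and 0.63. Atf4 had 10 spots, from 43120.3 to 46924 with a median of 44847 in the control, from 45653 to 50856 with a median of 48954 at the low dose, and from 50193 to 53986 with a median of 52385 at the high dose. Before scaling its low dose spots overlapped those of both other arrays. After scaling its ratios were 0.06 ± 0.02 and 0.20, and the high dose against the low dose gave 0.14 ± 0.02.

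Of the other members, Ppp1r15a, which directs dephosphorylation of eIF2α, gave 0.12 and 0.60 for the low and high dose. Cebpb, a transcription factor of the C/EBP family, gave 0.06 and 0.37, and Inhbe, an inhibin chain of the same superfamily as Gdf15, 0.08 and 0.41. Chac1, a glutathione-degrading enzyme, gave -0.18 ± 0.10 and 0.05 with a single spot. Sesn2 (0.03 and 0.23), Nupr1 (-0.01 and 0.15) and Asns (0.01 and 0.07) were close to the control at the low dose. Atf3, a stress-induced repressor, had 1 of 2 high dose spots well above background, at 29.7 beside 4.84, and none on the other arrays. Fgf21 had no spot well above background on any array. No measured member reached the low dose ratio of Gdf15, which ranked 37 of all 14397 genes, so few genes of any kind do. At the high dose 5 members lay above its ratio, which ranked 571 of 14397. All 31 had a higher ratio than Gdf15 for the high dose against the low dose. There Gdf15 ranked 632 of 14397 from the lowest, so most genes of any kind lie above it. Gdf15 was chosen for its order, so these counts do not set the list apart.

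**Figure D3:**
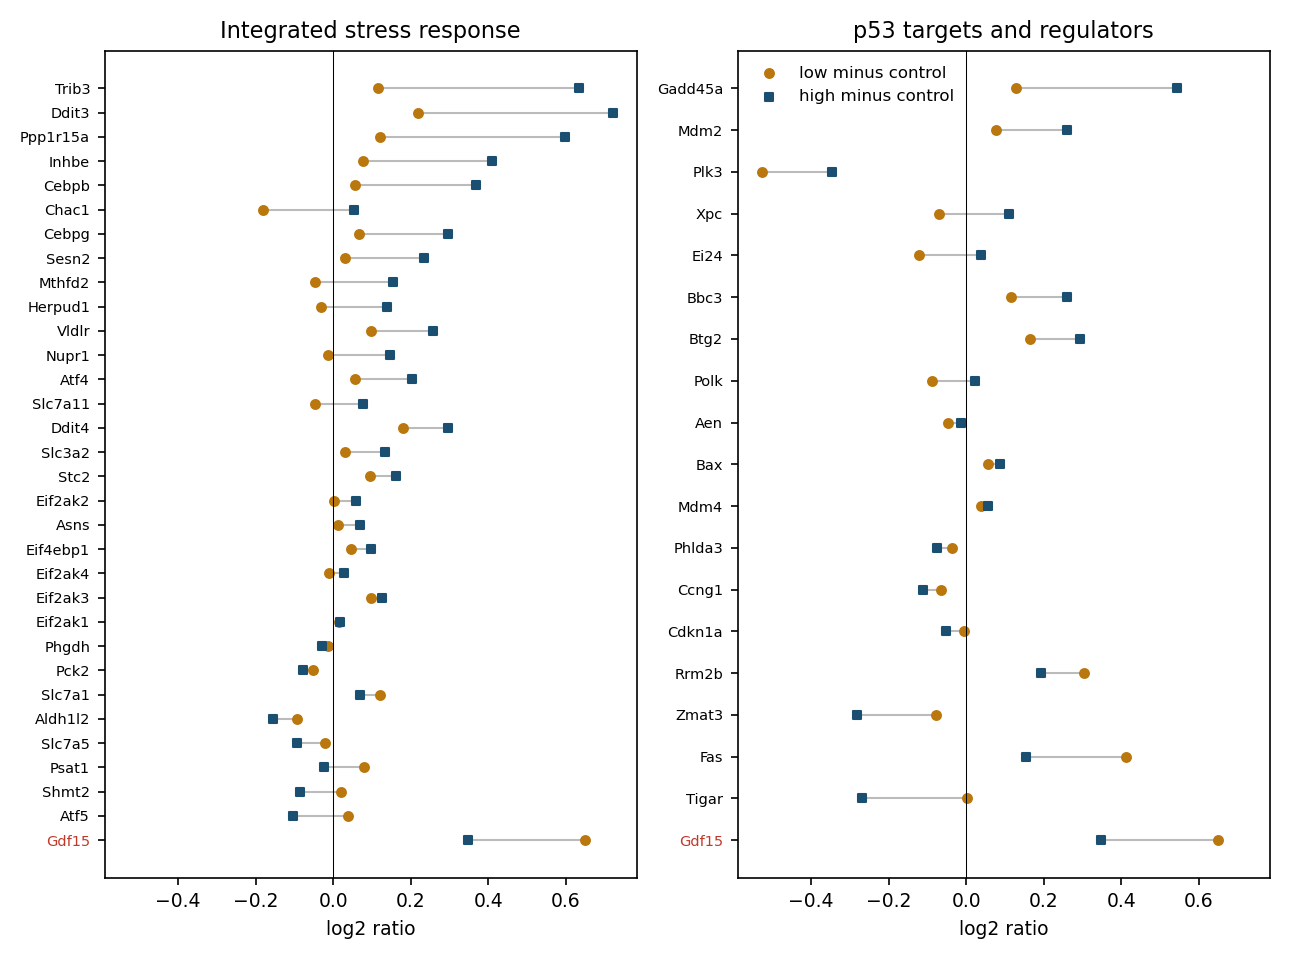
Log2 ratio to the control at the low dose (circles) and the high dose (squares) for the 31 measured genes of the integrated stress response list and for genes of the p53 list, ordered by the high dose against the low dose, with Gdf15 at the bottom of each panel. Gdf15, chosen for its order with the highest signal at the low dose, has the low dose circle furthest to the right in both panels. Its square lies to the left of that circle, while Trib3, Ddit3 and Gadd45a have the square far to the right.

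Of 30 genes in the p53 list, 21 were measured and 3 had the order of Gdf15, close to the 12.3% of all genes. The medians were 0.02 for the low dose and 0.06 for the high dose against the control, and 0.18 and 0.21 with spike-in centring. At the low dose 4 members were above and 1 below the control by more than 2 spot errors, against 4.37% and 4.48% of all genes. With the high dose 7 were above and 2 below, against 10.6% and 13.1%. Cdkn1a, which encodes the cell cycle inhibitor p21, gave -0.01 and -0.05. Mdm2, a ubiquitin ligase, gave 0.08 and 0.26. Gadd45a, a stress-induced growth arrest gene, had control spots of 823 and 934, low dose spots of 984 and 1011, and high dose spots of 1291 and 1292. Its groups did not overlap, and its ratios were 0.13 and 0.54. Members in the order of Gdf15 included Fas (0.41 ± 0.36 and 0.16), a death receptor, and Rrm2b (0.30 ± 0.25 and 0.19), a ribonucleotide reductase subunit, both with large spot errors. No p53 list member reached the low dose ratio of Gdf15, and 2 members, Gadd45a among them, exceeded its high dose ratio. Over all 14397 genes Gdf15 ranked 37 and 571 for these ratios, so few genes of any kind lie above it.

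Of 13 genes of transcription factors known to act on Gdf15 or on the same stress pathways, 11 were measured and 0 had the order of Gdf15, a count too small to set apart from the 12.3% of all genes. Egr1, an immediate early factor, gave -0.26 and -0.18, but its probes disagreed. Before scaling its probe with 10 spots had medians of 155, 157 and 139 in control, low and high dose. The medians of its dimmer probe were 59.2, 44.7 and 49.2. The general factor Sp1 gave -0.05 and 0.12. Nfe2l2, which encodes the oxidative stress factor NRF2, gave 0.01 and 0.30. Of the endoplasmic reticulum stress list all 18 were measured and 3 had the order, Pdia4, Edem1 (0.16 and 0.08) and Manf (0.03 and 0.00), which is near the share of 12.3% over all genes. In the mitochondrial stress list 15 of 17 genes were measured, 0 had the order against 12.3% of all genes, and the medians were 0.01 and -0.04.

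Genes for the processing and reception of GDF15 were mostly too dim to measure. Gfral, the receptor, had spots between 4.18 and 5.47 on the 3 arrays, none of them well above background, and Gfra1, Gfra3 and Gfra4 had none either. Ret was well above background at 1 probe on the control and low dose arrays and not on the high dose array, so it was not measured. Of 11 genes in this list 5 were measured and 0 had the order, against 12.3% of all genes. All 5 were below the control at the high dose, as were 52.1% of all genes, and 3 fell short of it by over 2 spot errors, as did 13.1% of all genes. Furin, the convertase, gave 1887 in the control, 2015 at the low dose and 1688 with the high dose from a single spot, or 0.04 and -0.18. Pcsk6, a related convertase, gave -0.03 and -0.19, and the membrane protease Mmp14 -0.01 and -0.12.

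Among the ligands of the transforming growth factor β superfamily and of the GDNF family, 16 of 36 genes were measured and 2 had the order, near the 12.3% of all genes. The list median was 0.01 for the low dose and -0.02 for the high. Gdnf, the ligand of GFRA1 and RET, gave 0.09 and 0.59. Inhba, the activin A chain, gave 0.13 and 0.31. Tgfb1 gave -0.02 and -0.29, and Gdf11, a close relative of myostatin, 0.01 and -0.42. Gdf11 was the only measured ligand with a lower ratio than Gdf15 for the high dose against the low dose, at -0.43. Gdf15 ranked 632 of 14397 from the lowest there, so few genes of any kind lie below it.

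The promoter windows are shown because the C/EBP-ATF response element is the site through which ATF4 and CHOP act on stress response genes. RefSeq, in the rat assembly GRCr8, gives 2 promoter windows for Gdf15, and bases before the start are printed for the window with a TATA box, at chr16:18839015-18839264 on the plus strand. Capitals mark the TATA box TATAAA, which begins 28 bases before the start, and 5 GC boxes GGGCGG on either strand, of which some overlap each other.
Gdf15 promoter: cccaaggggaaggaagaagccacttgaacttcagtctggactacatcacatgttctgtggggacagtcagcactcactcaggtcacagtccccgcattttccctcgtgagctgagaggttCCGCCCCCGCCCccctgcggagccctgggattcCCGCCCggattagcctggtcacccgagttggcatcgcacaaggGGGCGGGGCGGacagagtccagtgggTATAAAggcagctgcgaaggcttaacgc
Of 33469 promoter windows in that table, 14.2% held TATAAA and 33.1% held GGGCGG on either strand. The C/EBP-ATF response element TGATGNAA was in 3.98% of windows and in neither Gdf15 window. It was in 9 of the 33 integrated stress response genes with a window, Trib3 and Chac1 among them, which are printed with the element in capitals.
Trib3, chr3:161275536-161275565, plus strand: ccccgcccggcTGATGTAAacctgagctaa
Chac1, chr3:126795953-126795982, minus strand: cctagcaggagTGATGCAAcggcggagaag
The p53 half-site was in 7.98% of windows and in neither Gdf15 window, and the antioxidant response core TGACNNNGC was in 12.1% of windows and at 2 places in the TATA box window of Gdf15, 1 of them within the bases printed above and the other running past the start. The windows searched have 300 bases, of which 250 lie before the start. A match is a run of letters in these windows and not a measured binding site.

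All 7 osteoblast markers were well above background on every array. Their median log2 ratio was -0.01 for the low dose and -0.13 for the high dose. At the high dose 5 of 7 were below the control, as were 52.1% of all genes. By more than 2 spot errors 3 of the 7 were below, as were 13.1% of all genes. The collagen gene Col1a1 gave -0.23 at the high dose, while the bone matrix gene Spp1 gave 0.26. Of the macrophage markers, Ptprc and Adgre1 were not well above background on any array, and 4 of 6 were measured. The summed signal of all 6, these dim ones included, lay between 385 and 394 on the 3 arrays. The measured ones did not move together: Cd68 gave 0.39 and 0.05, Csf1r -0.56 and 0.32, Aif1 -0.44 and -0.57, and Cd14 -0.03 and -0.07. Of the adipocyte markers only Fabp4 was measured, at 0.09 and 0.03. Among endothelial markers Kdr and Tek had no spot well above background, while Pecam1 gave 0.02 and 0.42 and Cdh5 -0.15 and 0.04. Epcam, Cdh1 and Krt18 of epithelium had none either, while Krt8 gave 0.11 and 0.27. The cartilage genes Col2a1, Acan and Col10a1 were not measured, and Sox9 gave 0.41 and -0.11. The part of these markers in the Gdf15 result was not tested. Between 55.9% and 57.2% of the probes were well above background on the 3 arrays. The arrays shared a slide, so position and group cannot be told apart. The 8 spike-in probes, which measure control RNAs of the array design and not cell RNA, gave mean log2 ratios of -0.16 for the low dose and -0.15 for the high dose after scaling, so centring on them raises every ratio to the control by about that much.

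**Figure D4:**
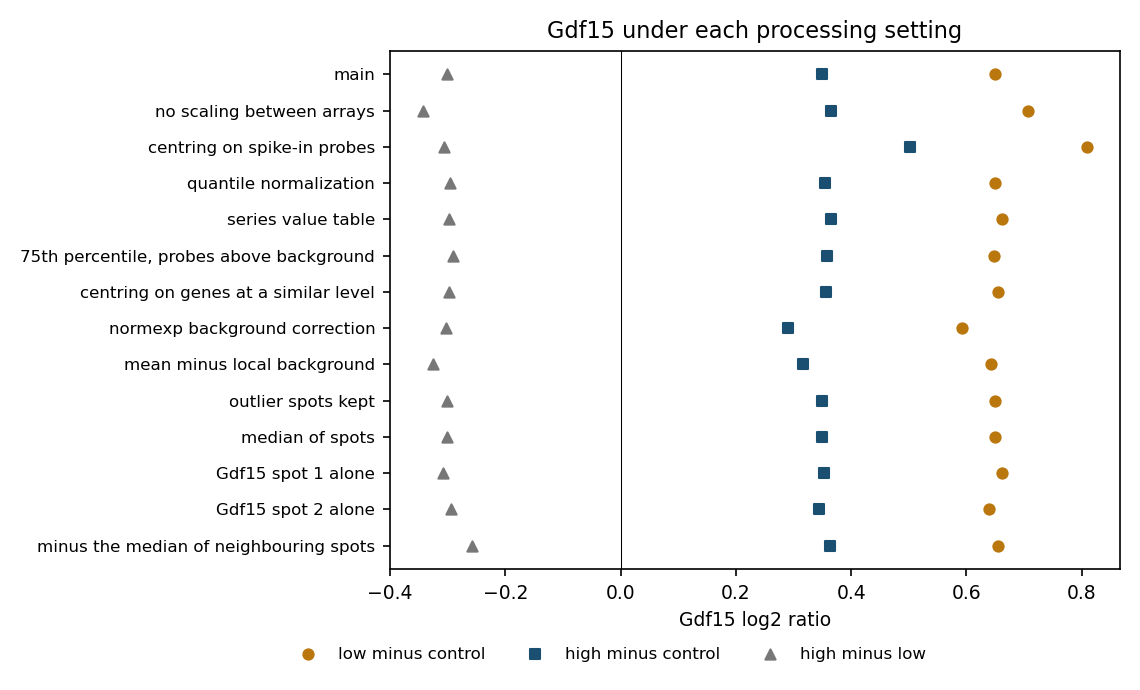
Log2 ratios of Gdf15 (horizontal) under the main setting and each alternative processing (vertical), for low dose against control (circles), high dose against control (squares) and high dose against low dose (triangles). The circles lie between 0.59 and 0.81, the squares between 0.29 and 0.50 and the triangles between -0.34 and -0.26.

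Under every one of these settings Gdf15 kept the order low over high over control. The ratio of the low dose to the control was lowest, at 0.59, with normexp background correction and highest, at 0.81, with centring on the spike-in probes. The ratio of the high dose to the low dose, which does not use the control array, ranged from -0.34 without scaling to -0.26 after subtraction of the neighbouring spots.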

How the data were processed

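Gene expression was measured on 3 one-colour arrays, 1 per group, grouped by the treatment labels. The spot intensity values deposited by the authors are scanner output from Feature Extraction 10.7.3.1 (protocol GE1_107_Sep09, design 028279, probe coordinates on rn4), per the file headers. The processed signal was background-subtracted and detrended within each array, per the file headers, and was not normalized between arrays. The detrending factor, a score relative to 1, and the 0 or 1 flags were deposited in the same files. The authors also deposited a series table of ratio values, each the processed signal over 1 constant per array (823 control, 849 low, 823 high), with column medians of 0.0737, 0.0731 and 0.0734 and no centring of genes. Its processing is not stated in the sources used here.

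Each processed signal was taken to log2 and the 75th percentile of its own array, over 58717 non-control spots, was subtracted. Outlier spots (426 control, 368 low, 352 high) were left out, and no spot was saturated. Spots of a probe and probes of a gene were averaged. A gene was measured if a probe had at least 50% of its spots well above background on all arrays. Symbols of 18438 probes (60.7%) were updated through accessions of a RefSeq gene table. The spot error is the SD between repeat spots, pooled in 20 bins of level, carried to the ratio. The number of arrays limits the precision. No p-value was computed.

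Named genes, taken from those with a symbol, were Gdf15, its 12 nearest and the 8 with the largest low dose ratio at its level. Others were the 8 nearest over all levels, genes at the edges of the level range, fixed stress and receptor genes, and extremes of each list. Not all are printed, and some list members, counted in the list totals, are not reported here. Other names were chosen after their values were seen. The members and lists were chosen with earlier results of these data known. Alternatives were other scalings, background corrections, filters, spot summaries, single Gdf15 spots, neighbouring spots and level ranges of 0.25 and 1, with 1.2-fold steps added later. The script was tested on simulated data. Tools were Python 3.11.15, numpy 2.4.6 (also for quantile normalization), pandas 2.3.3, R 4.3.3 and limma 3.58.1 (normexp with offset 50).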

Additional observations from a re-analysis of the deposited data

How the results depend on the processing

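No paired analysis was possible because each group holds 1 array, and no array could be left out for the same reason. Of the values set beside alternatives, 99 moved by less than the spot error, or 1.5 times for a count, and 17 by more. The sign changed only for the p53 list's high dose median, within its spot error. Centring on the spike-in probes moved the Gdf15 ratio to 0.81 for the low dose and 0.50 for the high dose, the medians of the integrated stress response list to 0.19 and 0.28, and those of the p53 list to 0.18 and 0.21. Without scaling the stress list's low dose median was 0.089. The p53 list's high dose median ranged from -0.01 to 0.21. The count of genes at the level of Gdf15 in its order, 191 in the main setting, was 362 without scaling, 668 with spike-in centring (39.2% of the genes), 98 in the narrower level range and 374 in the wider. The count with both 25% steps, 2 in the main setting, was 4 without scaling and 4 with spike-in centring, 1 with the percentile over probes above background, 1 with normexp, 1 in the narrower range, 3 in the wider, and 5 with 1.2-fold steps, a size chosen after seeing the data. The cause was not tested, except that the ranges and steps change the genes counted by construction. Spike-in centring shifts the median of all genes by 0.16 for the low dose and 0.15 for the high dose. Gdf15 kept its order under each alternative. Signal over background limits the dim genes, whose spot errors reach 0.36, and the differences between cultures were not measured.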
